A study of Mus musculus with 12 samples.

Results

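The ionotropic and metabotropic glutamate receptor genes and the scaffold genes of the postsynaptic density were followed through the 4 groups of a mouse striatum RNA sequencing study. They were all the symbols in the deposited table that began with Gria, Grik, Grin, Grm, Dlg, Dlgap, Shank or Homer followed by a digit. The rule found 40 of 15397 genes, 24 named for receptors and 16 for scaffolds, and the rule uses names alone, although the set was chosen with earlier results of these data known. R6/2 mice carry the first exon of human huntingtin with an expanded CAG repeat as a transgene, driven by the human huntingtin promoter and so not confined to 1 cell type. The groups were R6/2 mice on PLX3397, R6/2 mice on vehicle, Wild-type mice on PLX3397 and Wild-type mice on vehicle, with 3 mice in each. All were C57BL/6 by label. PLX3397, an inhibitor of the receptor CSF1R that microglia need to survive, was given at 275 ppm in the chow between 7 and 11 weeks of age. The study asked what removal of microglia does in this Huntington's disease model, and total RNA came from dissected striatum.

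Glutamate released by cortical and thalamic axons opens AMPA, kainate and NMDA receptor channels on the spines of striatal projection neurons. It also acts on metabotropic receptors, which signal through G proteins. Beneath the membrane, Dlg proteins hold receptors in place, Dlgap proteins tie them to Shank proteins, and Homer proteins link Shank to group I metabotropic receptors. The 40 genes held 4 AMPA (Gria1 to Gria4), 5 kainate (Grik1 to Grik5), 8 NMDA and 7 metabotropic (Grm) receptor genes. They further held 5 Dlg, 5 Dlgap, 3 Shank and 3 Homer genes. 2 entries stand apart from this description: Grin1os is a long noncoding RNA antisense to Grin1, and Dlgap5 is a regulator of the mitotic spindle. Of the exon bases of Grin1os, 45.2% overlapped exons on the opposite strand, against 13.5% for Grin1, 32.1% for Grin3b and 25.4% for Homer3. The strand setting of the counting is not given in the sources used here, so reads of such pairs cannot be told apart.

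The libraries held 18902120 to 24293208 reads, and values are counts scaled to library size on a log2 scale (log2 CPM) unless stated otherwise. In the same libraries all 8 microglia markers fell with PLX3397 in both genotypes. The 11 markers of striatal projection neurons summed to 647 to 2250 CPM in R6/2 mice on PLX3397, 645 to 1560 CPM in R6/2 mice on vehicle, 5920 to 12900 CPM in wild-type mice on PLX3397 and 2860 to 8090 CPM in wild-type mice on vehicle. All 11 were above 0 in every library, and all 11 were lower in R6/2 mice over both diets, with a median log2 change of -2.64. Markers of other regions varied between libraries. The 9 markers of cortical excitatory neurons had a mean log2 CPM of 2.09, 1.84 and 5.52 in R6/2 mice on PLX3397, 4.96 to 6.22 in R6/2 mice on vehicle, 2.27, 4.88 and 5.21 in wild-type mice on PLX3397 and 3.64 to 4.90 in wild-type mice on vehicle. The 4 measured choroid plexus markers summed to 4520 CPM in R6/2 vehicle library 1, 1040 CPM in wild-type PLX3397 library 1 and 44.4 to 106 CPM in the other libraries. The part of these differences in the results for receptors and scaffolds was not tested, apart from a cortical marker covariate and the fits that leave such libraries out. In bulk tissue, fewer cells of a type and less RNA per cell cannot be told apart.

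Levels of different genes are compared here per kilobase of exon, in CPM per kilobase (mean ± SD, n = 3 wild-type mice on vehicle). The length used is that of all annotated exons of a gene joined together. For Dlg4 this is 13251 bases, against 6326 in its longest transcript, and for Dlgap3 4521 against 4207. For Gria1 it is 6043 against 5546, so the order of genes, the top ranks included, depends on this choice of length. Gria1, the GluA1 subunit of AMPA receptors, stood at 100.9 ± 11.2 and ranked highest by its mean. Dlgap3, a scaffold rich in striatum, had 84.5 ± 22.1, and the range of its libraries overlapped that of Gria1. Dlg4, which encodes PSD-95, had 56.3 ± 2.78, and Grik5, a kainate receptor subunit, 42.1 ± 3.75. Next came Shank3, Dlg2, Dlg3, Grm5, Gria2 and Grin1, whose means lay between 30.0 and 36.3. At the low end were Grin2a at 0.778 ± 0.298, Grin3b at 0.643 ± 0.334 and Dlgap5 at 0.156 ± 0.0134. Only 4 of the 39 neighbouring pairs in this order had libraries that did not overlap, namely Dlgap3 over Dlg4, Dlg4 over Grik5, Grm2 over Grin2a and Grin3b over Dlgap5. The map of 39 genes by library shows where the groups depart from wild-type mice on vehicle.

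**Figure D1:**
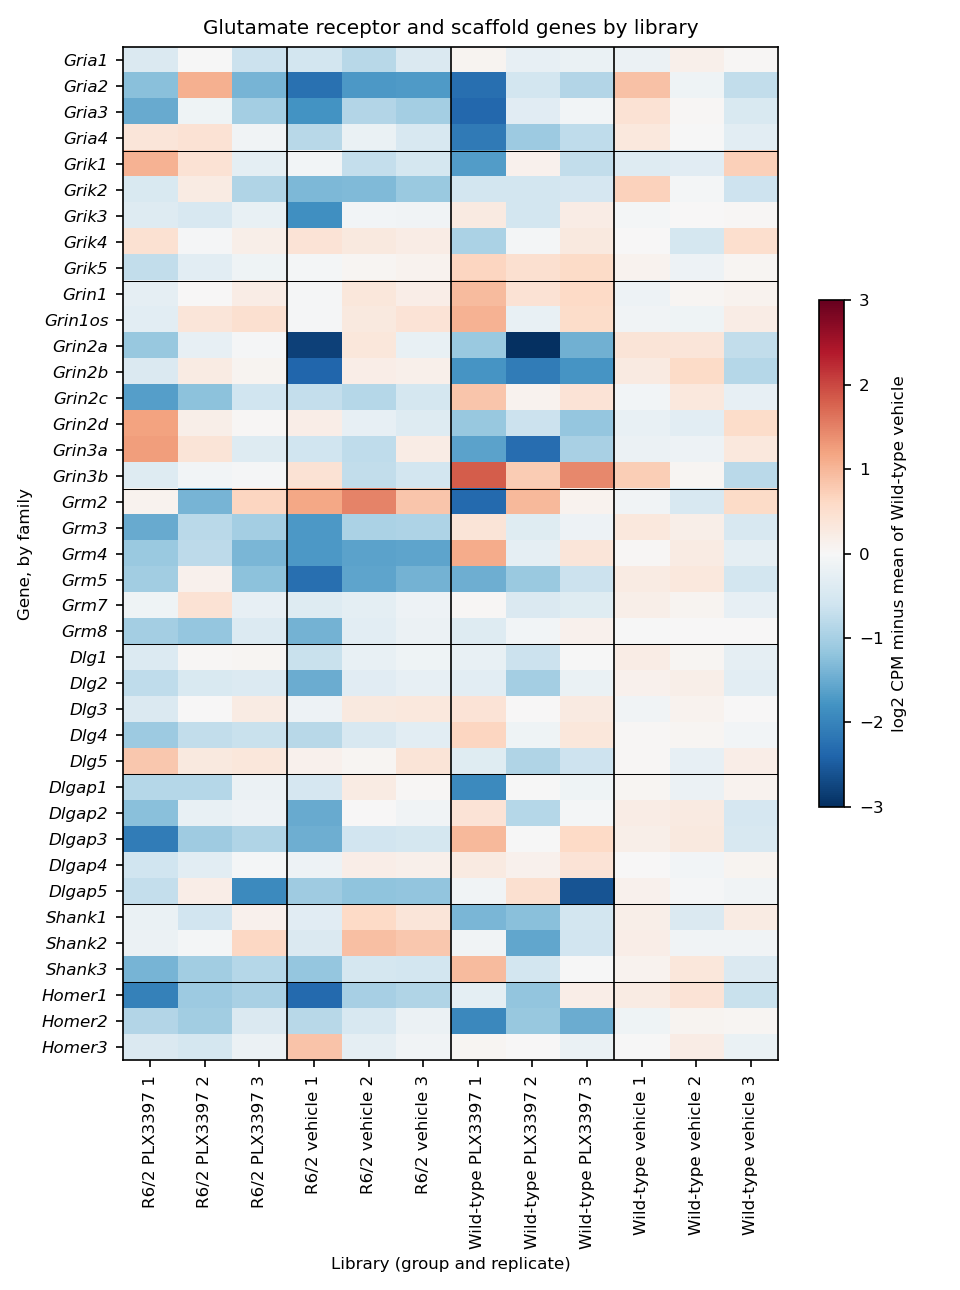
Each cell is the log2 CPM of 1 gene (rows, grouped by family) in 1 library (columns, grouped by genotype and diet) minus the mean of the 3 wild-type vehicle libraries, with colours saturating at 3 in either direction. Grm3, Grm4, Homer1, Dlg4 and Dlgap3 are below that mean in all 6 R6/2 libraries, and wild-type PLX3397 library 2 has the lowest Grin2a.

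The genotype comparison averaged over the diets set 6 R6/2 mice against 6 wild-type mice, each diet weighted equally. 10 of the 40 genes were lower in R6/2 mice and 1 was higher. Over all 15397 genes 22.4% were called, 11.9% as lower and 10.5% as higher, at a limma adjusted p under 0.05. The median log2 change of the 40 genes was -0.311, against 0.012 for all genes, and 28 of the 40 were below 0. Among the receptors, 3 metabotropic genes fell (Grm3, Grm4 and Grm8), with 1 NMDA gene (Grin2c), 1 AMPA gene (Gria1) and 1 kainate gene (Grik5). Among the scaffolds, Dlg4, Dlgap3, Shank3 and Homer1 fell and Dlg5 rose. For 5 genes, Grm3, Grm4, Grin2c, Dlg4 and Dlgap3, every R6/2 library lay below every wild-type library. All genes gave 7.27% without overlap in this comparison. The 11 projection neuron markers were lower in the same comparison. So were 3 of 6 astrocyte markers (median -0.521) and 4 of 6 markers of myelinating oligodendrocytes (median -0.898). Of the markers of thalamus, septum and pallidum 2 of 7 were lower (median -1.23). Called higher were 2 of 9 cortical markers (median 0.166) and 1 of 5 oligodendrocyte precursor markers (median 0.305). The part of these lists was not tested, apart from a cortical marker covariate and the fits that leave libraries out.

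Grm4, a group III metabotropic receptor that sits on axon terminals and lowers transmitter release, had 4.09, 4.43 and 3.85 log2 CPM in R6/2 mice on PLX3397 and 3.48, 3.61 and 3.63 in R6/2 mice on vehicle, against 6.32, 4.95 and 5.58 in wild-type mice on PLX3397 and 5.24, 5.46 and 4.94 in wild-type mice on vehicle. Its log2 change was -1.57 ± 0.21 (SE, adjusted p = 0.000875), the largest drop of the 40 genes. Grm3, a group II receptor made by neurons and astrocytes, had 4.61, 5.31 and 5.12 log2 CPM in R6/2 mice on PLX3397 and 4.41, 5.17 and 5.20 in R6/2 mice on vehicle, against 6.50, 5.77 and 5.98 in wild-type mice on PLX3397 and 6.44, 6.29 and 5.64 in wild-type mice on vehicle. The highest R6/2 library was at 5.31 and the lowest wild-type library at 5.64, and the log2 change was -1.13 ± 0.21 (SE, adjusted p = 0.00421). Taken by diet, the log2 change of Grm4 was -1.50 on PLX3397 and -1.64 on vehicle, and that of Grm3 -1.07 and -1.20, the last short of the threshold (adjusted p = 0.0616). On GRCm38, Grm4 lies on chromosome 17 between 27422387 and 27513826, Grm3 on chromosome 5 between 9485236 and 9725352 and Grin2c on chromosome 11 between 115249169 and 115267297.

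Grin2c, an NMDA receptor subunit best known from the cerebellum, had 4.29, 4.72 and 5.36 log2 CPM in R6/2 mice on PLX3397 and 5.23, 5.09 and 5.43 in R6/2 mice on vehicle, against 6.77, 6.06 and 6.35 in wild-type mice on PLX3397 and 5.87, 6.27 and 5.71 in wild-type mice on vehicle. Its R6/2 and wild-type libraries did not overlap, and the log2 change was -1.15 ± 0.19 (SE, adjusted p = 0.00255). Grm8, another group III receptor, had 3.36, 3.21 and 3.96 log2 CPM in R6/2 mice on PLX3397 and 2.96, 4.05 and 4.20 in R6/2 mice on vehicle, against 3.98, 4.30 and 4.49 in wild-type mice on PLX3397 and 4.35, 4.38 and 4.38 in wild-type mice on vehicle. Wild-type PLX3397 library 1 lay below R6/2 vehicle libraries 2 and 3 and every other wild-type library was above all R6/2 libraries, and the log2 change was -0.69 ± 0.22 (SE, adjusted p = 0.0431). The call for Grm8 was lost without R6/2 PLX3397 1 or 2, or R6/2 vehicle 2, or wild-type PLX3397 2 or 3, or wild-type vehicle 1, 2 or 3 (adjusted p 0.0507 to 0.0939). Gria1 had 8.82, 9.24 and 8.61 log2 CPM in R6/2 mice on PLX3397 and 8.69, 8.42 and 8.81 in R6/2 mice on vehicle, against 9.34, 9.01 and 9.04 in wild-type mice on PLX3397 and 9.07, 9.39 and 9.28 in wild-type mice on vehicle. R6/2 PLX3397 library 2, alone of the R6/2 libraries, lay inside the wild-type range, and the log2 change was -0.42 ± 0.13 (SE, adjusted p = 0.0365). This call was lost without R6/2 PLX3397 1 or 3, or R6/2 vehicle 2, or wild-type PLX3397 1 or 3, or wild-type vehicle 2 or 3 (adjusted p 0.0501 to 0.0902). Grik5 had 7.02, 7.44 and 7.63 log2 CPM in R6/2 mice on PLX3397 and 7.71, 7.82 and 7.88 in R6/2 mice on vehicle, against 8.41, 8.24 and 8.33 in wild-type mice on PLX3397 and 7.86, 7.61 and 7.81 in wild-type mice on vehicle. Its R6/2 vehicle libraries overlapped the wild-type vehicle libraries, so the difference of -0.46 ± 0.11 (SE, adjusted p = 0.0115) came with groups that were apart on PLX3397 and not on vehicle.

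The scaffolds that fell include the main PSD-95 gene and its partners. Dlg4 had 8.46, 8.80 and 8.87 log2 CPM in R6/2 mice on PLX3397 and 8.70, 9.06 and 9.23 in R6/2 mice on vehicle, against 10.19, 9.40 and 9.87 in wild-type mice on PLX3397 and 9.58, 9.59 and 9.46 in wild-type mice on vehicle. It lies on chromosome 11 between 70017203 and 70045535. No R6/2 library reached the lowest wild-type library, and the log2 change was -0.83 ± 0.15 (SE, adjusted p = 0.00368). Dlgap3 encodes SAPAP3, and mice that lack it groom compulsively through a corticostriatal defect. Its values were 6.43, 7.48 and 7.64 log2 CPM in R6/2 mice on PLX3397 and 7.09, 7.98 and 8.0 in R6/2 mice on vehicle, against 9.52, 8.52 and 9.14 in wild-type mice on PLX3397 and 8.72, 8.84 and 8.07 in wild-type mice on vehicle. Wild-type vehicle library 3, at 8.07, was the nearest to the R6/2 libraries, and the log2 change was -1.36 ± 0.27 (SE, adjusted p = 0.00569). Shank3, the Shank gene most abundant in striatum, had 6.96, 7.31 and 7.49 log2 CPM in R6/2 mice on PLX3397 and 7.19, 7.83 and 7.80 in R6/2 mice on vehicle, against 9.30, 7.79 and 8.34 in wild-type mice on PLX3397 and 8.45, 8.68 and 7.92 in wild-type mice on vehicle. The log2 change was -0.98 ± 0.24 (SE, adjusted p = 0.017), with wild-type PLX3397 library 2 inside the R6/2 range. Homer1 yields a long scaffold form and a short form induced by activity, which the gene-level values do not separate. It had 5.60, 6.54 and 6.66 log2 CPM in R6/2 mice on PLX3397 and 5.31, 6.64 and 6.72 in R6/2 mice on vehicle, against 7.33, 6.46 and 7.82 in wild-type mice on PLX3397 and 7.88, 8.04 and 6.97 in wild-type mice on vehicle. The log2 change was -1.17 ± 0.33 (SE, adjusted p = 0.0288), and wild-type PLX3397 library 2 lay inside the R6/2 range. The call for Homer1 was lost without R6/2 PLX3397 1, or wild-type PLX3397 3, or wild-type vehicle 1 or 2 (adjusted p 0.0597 to 0.0694). Dlg5, a family member tied to cell polarity more than to synapses, had 6.47, 5.95 and 5.99 log2 CPM in R6/2 mice on PLX3397 and 5.80, 5.73 and 6.04 in R6/2 mice on vehicle, against 5.30, 4.76 and 5.04 in wild-type mice on PLX3397 and 5.69, 5.42 and 5.86 in wild-type mice on vehicle. It was the 1 gene called higher in R6/2 mice, by 0.65 ± 0.13 (SE, adjusted p = 0.00709), and its groups overlapped on vehicle.

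**Figure D2:**
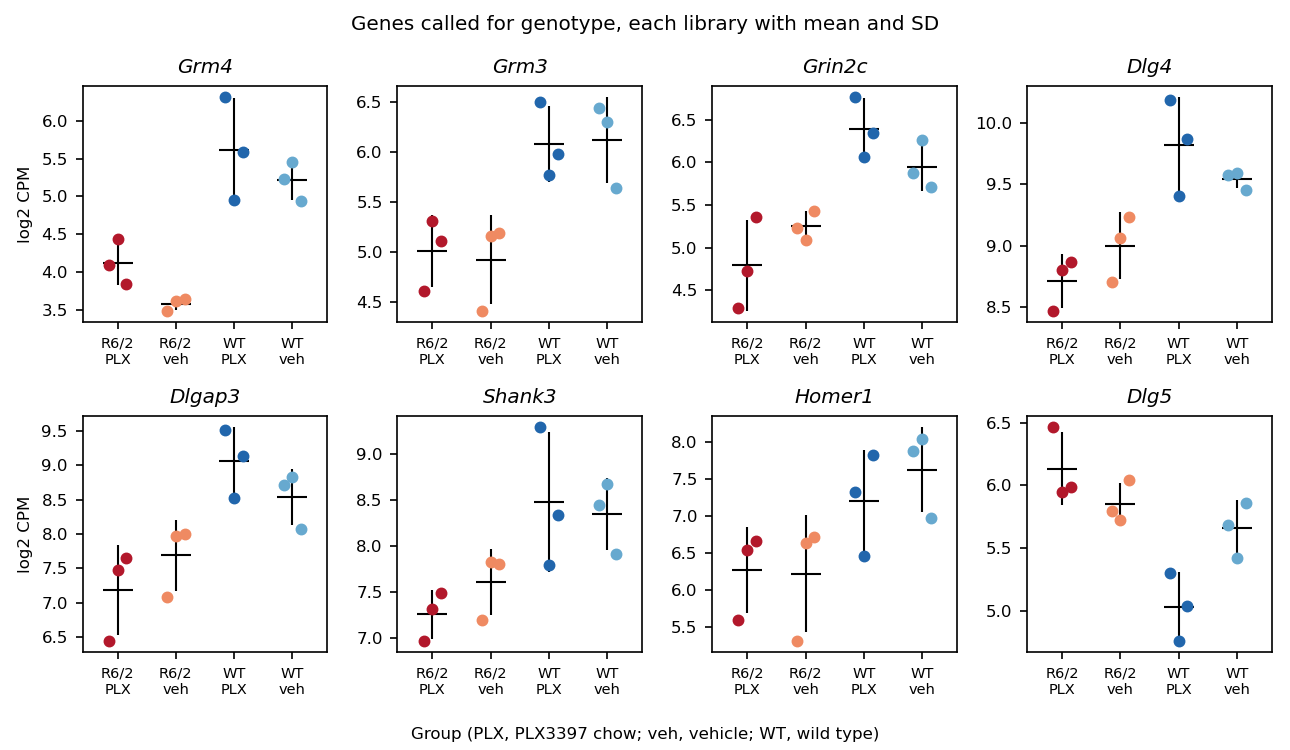
Each point is the log2 CPM (vertical axis) of 1 mouse in the group named below it, with the mean as a horizontal line and the SD as a vertical bar (n = 3), for 8 of the 11 genes called for genotype over both diets. Grm4, Grm3, Grin2c, Dlg4 and Dlgap3 show no overlap between the 6 R6/2 and the 6 wild-type mice, while Shank3, Homer1 and Dlg5 do.

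The calls for Grm3, Grm4, Grin2c and Dlg4 held in all 24 alternative fits, which include each library left out in turn, removal of the trend with GC content and length, and a cortical marker covariate. With that trend removed all 11 genes were still called, and the 5 genes that joined them as lower included Dlg1, Dlg2, Grik2 and Grm5. The total was 16 of the 40 genes, 15 of them lower. This is 40%, where 23.3% of all genes in that fit were called. Shank3 lost its call without R6/2 PLX3397 libraries 1 and 2 (adjusted p = 0.132). The same removal gave adjusted p = 0.303 for Grm8 and 0.171 for Homer1, 0.0597 for Dlg5 and 0.0872 for Grik5. Dlgap3 lost its call without the 3 libraries lowest in cortical markers (adjusted p = 0.0534), a fit added after the data had been seen.

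**Figure D3:**
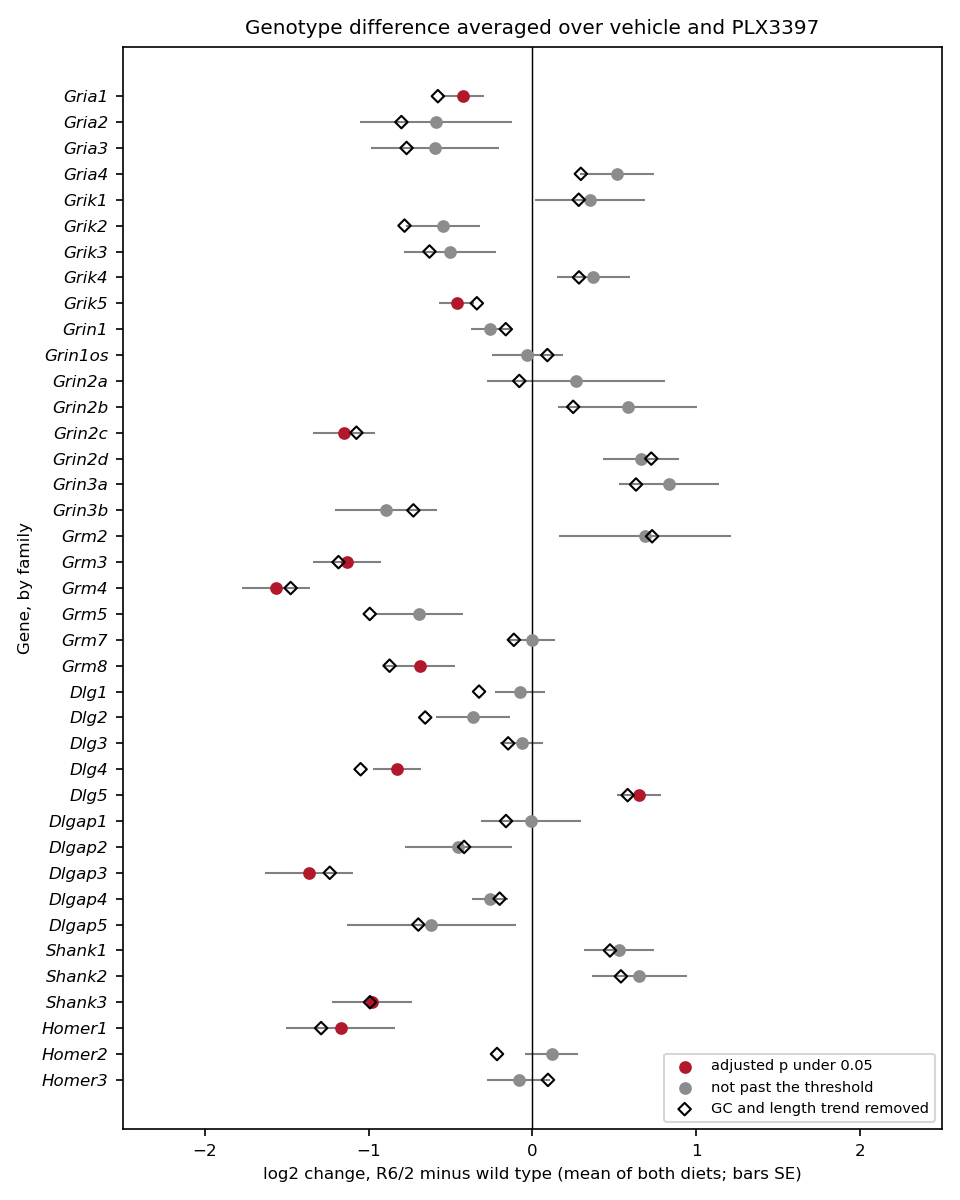
Horizontal position gives the log2 change between R6/2 and wild-type mice averaged over the diets, with SE bars, for 39 of the 40 genes by family. Red points are the 11 genes with adjusted p under 0.05, and open diamonds give the change after the trend with GC content and length was removed. The change of Grm4 is -1.57 and that of Dlg5 is 0.65.

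Promoters are shown for 4 genes called over both diets, 3 lower and 1 higher, to show how their start regions differ in base composition. They are RefSeq sequences on GRCm38.p6, from 250 bases before to 50 after the start, written 5′ to 3′ on the gene's strand. Capitals mark GGGCGG, the core of the site bound by Sp1 and its relatives. It was searched on both strands, and a pair of matches in Grin2c and another in Grm3 abut or overlap. Grin2c (chr11:115267194-115267493, minus strand) holds 3 matches and Grm3 (chr5:9725303-9725602, minus strand) 2. Dlg5 (chr14:24245871-24246170, minus strand) holds 1 and Dlgap3 (chr4:127172630-127172929, plus strand) none in this window. The Dlgap3 window lies inside the gene, whose RefSeq span begins at 127168305. Its letters therefore describe an internal start and not the outermost one.
Grin2c: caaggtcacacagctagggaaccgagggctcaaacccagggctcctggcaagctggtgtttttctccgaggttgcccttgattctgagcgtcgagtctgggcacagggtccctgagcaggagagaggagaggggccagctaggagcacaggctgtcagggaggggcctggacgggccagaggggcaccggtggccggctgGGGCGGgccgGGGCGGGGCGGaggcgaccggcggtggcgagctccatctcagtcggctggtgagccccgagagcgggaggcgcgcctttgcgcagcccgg
Grm3: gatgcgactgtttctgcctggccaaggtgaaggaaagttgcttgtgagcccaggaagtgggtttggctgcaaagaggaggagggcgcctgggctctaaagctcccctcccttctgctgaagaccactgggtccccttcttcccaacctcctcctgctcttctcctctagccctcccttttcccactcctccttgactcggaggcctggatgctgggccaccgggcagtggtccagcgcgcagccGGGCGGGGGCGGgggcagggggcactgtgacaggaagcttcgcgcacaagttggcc
Dlgap3: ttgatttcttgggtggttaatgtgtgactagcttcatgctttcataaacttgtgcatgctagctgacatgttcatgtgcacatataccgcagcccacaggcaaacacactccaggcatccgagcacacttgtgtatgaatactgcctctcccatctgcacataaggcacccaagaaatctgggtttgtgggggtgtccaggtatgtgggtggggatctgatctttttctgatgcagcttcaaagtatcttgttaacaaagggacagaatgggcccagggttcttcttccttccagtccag
Dlg5: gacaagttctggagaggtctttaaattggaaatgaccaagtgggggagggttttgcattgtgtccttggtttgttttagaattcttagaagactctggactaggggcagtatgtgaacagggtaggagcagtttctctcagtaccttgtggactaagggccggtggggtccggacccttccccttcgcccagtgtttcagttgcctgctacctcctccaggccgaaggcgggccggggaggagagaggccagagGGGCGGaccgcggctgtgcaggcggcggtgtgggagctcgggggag
The GC content of these windows was 70.0%, 63.7%, 47.7% and 58.3% in the order printed. RefSeq windows were at hand for 27 of the 40 genes, 41 windows in all. Of these, 46.3% held the motif, against 35.7% of 32851 windows over all genes, and the median GC content was 60% against 52.7%. A match is a description of these letters and not evidence of binding.

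Of 59 other genes of the postsynaptic density, all measured, 20 were lower in R6/2 mice over both diets and 1 was higher, Cacng7, where 11.9% of all genes were lower and 10.5% higher. The 4 with the smallest p were lower. They were Gsg1l, an AMPA receptor auxiliary subunit (-2.23 ± 0.25, adjusted p = 0.000404), and Ppp1r9b, the spine protein spinophilin (-1.04 ± 0.12, adjusted p = 0.00049). The others were Cnih2, which slows AMPA receptor closure (-0.90 ± 0.13, adjusted p = 0.00145), and Cacng4, of the same auxiliary class as stargazin (-1.38 ± 0.21, adjusted p = 0.00176). The median log2 change of the 59 genes was -0.355.

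On vehicle alone, 2 of the 40 genes were lower in R6/2 mice and none was higher, where 2.11% of all genes were called, 1.49% as lower and 0.617% as higher. Unadjusted p was under 0.05 for 12 of the 40. 29 of the 40 log2 changes were below 0, with a median of -0.521 against 0.009 for all genes. With the trend in GC content and length removed the median was -0.354, against 0.058 for all genes in that fit. Without R6/2 vehicle library 1 it was -0.282, against 0.003. The groups did not overlap for 18 genes, 17 of them lower, which is 45% against 33.5% of all genes. Grm4 was called at -1.64 ± 0.29 (SE, adjusted p = 0.0296). Grm5, the group I receptor that signals through Gq and binds Homer, had 7.33, 8.51 and 7.16 log2 CPM in R6/2 mice on PLX3397 and 6.13, 6.80 and 6.98 in R6/2 mice on vehicle, against 6.92, 7.27 and 7.74 in wild-type mice on PLX3397 and 8.63, 8.70 and 7.83 in wild-type mice on vehicle. All R6/2 vehicle libraries were below all wild-type vehicle libraries, and the log2 change was -1.75 ± 0.38 (SE, adjusted p = 0.0452). Both calls were close to the threshold. Grm4 was lost without R6/2 vehicle 1, 2 or 3, or wild-type vehicle 1 or 2 (adjusted p 0.064 to 0.14), and Grm5 without R6/2 PLX3397 1, or R6/2 vehicle 1, 2 or 3, or wild-type PLX3397 2 or 3, or wild-type vehicle 1 or 2 (adjusted p 0.0514 to 0.193). Calls over all genes fell in these fits too, to 0.00649% without wild-type vehicle 1 or without wild-type vehicle 2. They fell to 0.513%, 0.013% and 0.331% without R6/2 vehicle 1, 2 and 3 in turn. Both Grm4 and Grm5 were also lost with voom on the recovered reads (adjusted p = 0.0504 for Grm4 and 0.0538 for Grm5) and with the cortical marker covariate (0.054 and 0.113). The same vehicle libraries serve in the averaged comparison, so these values are not independent of it.

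Other genes on vehicle had large changes that did not pass the test. Gria2, the subunit that keeps AMPA receptors from passing calcium, had 7.60, 9.93 and 7.46 log2 CPM in R6/2 mice on PLX3397 and 6.62, 7.13 and 7.15 in R6/2 mice on vehicle, against 6.59, 8.30 and 7.97 in wild-type mice on PLX3397 and 9.72, 8.73 and 8.11 in wild-type mice on vehicle. R6/2 mice on vehicle lay wholly below wild-type mice on vehicle, and the log2 change was -1.89 ± 0.65 (SE, adjusted p = 0.131). The 3 libraries lowest in cortical markers are all on PLX3397 and so outside this contrast. Without them the log2 change of Gria2 stayed at -1.89, and only the shared estimate of the spread differed. Its values varied widely within the wild-type and the PLX3397 groups. Grik2, a core kainate receptor subunit, had 5.86, 6.58 and 5.42 log2 CPM in R6/2 mice on PLX3397 and 4.98, 5.0 and 5.21 in R6/2 mice on vehicle, against 5.77, 5.76 and 5.82 in wild-type mice on PLX3397 and 7.00, 6.27 and 5.69 in wild-type mice on vehicle. Again the vehicle groups did not overlap, and the log2 change was -1.26 ± 0.32 (SE, adjusted p = 0.0681). It passed without wild-type vehicle library 3 (adjusted p = 0.0328). Without the 3 libraries lowest in cortical markers, which are outside this contrast, its log2 change stayed at -1.26. The family members with the smallest p in the other families gave -0.61 ± 0.18 for Gria1 (adjusted p = 0.0969), -0.70 ± 0.27 for Grin2c (adjusted p = 0.163) and -0.54 ± 0.21 for Dlg4 (adjusted p = 0.163). Those of the remaining scaffolds were -0.85 ± 0.38 for Dlgap3 (adjusted p = 0.213), -0.74 ± 0.35 for Shank3 (adjusted p = 0.235) and -1.41 ± 0.47 for Homer1 (adjusted p = 0.121). Grm2, a group II receptor, was the 1 gene whose R6/2 libraries all lay above the wild-type libraries (1.17 ± 0.74, adjusted p = 0.37). Cortical markers summed to 667 to 1490 CPM in R6/2 mice on vehicle and 261 to 676 in wild-type mice on vehicle, with none of the 9 called. The marker lists with calls on vehicle were those of thalamus, septum and pallidum (3 of 7 lower, median -3.09), projection neurons (4 of 11 lower, median -2.48), astrocytes (2 of 6 lower, median -0.718) and myelinating oligodendrocytes (1 of 6 lower, median -0.675). Their part in the vehicle results was not tested. Of the 59 pathway genes 4 were lower and none higher, namely Lrrtm2 (-1.91), Neto2 (-1.97), Gsg1l (-1.72) and Cacng4 (-1.39).

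On PLX3397 the genotypes differed for 17 of the 40 genes, 10 lower and 7 higher in R6/2 mice. This is 42.5%, where 35% of all genes were called, 17.9% as lower and 17.1% as higher. Cortical markers were low in R6/2 PLX3397 libraries 1 and 2 and in wild-type PLX3397 library 1. Without both of those R6/2 libraries none of the 40 genes was called and 1.54% of all genes were, and the single R6/2 library then left is assumed to vary like the other groups. The genes called lower were Grm4 (-1.50, adjusted p = 0.00395), Grm3, Grin2c, Grin1, Grin3b, Grik5, Dlg4, Dlgap3, Dlgap4 and Shank3. Those called higher were Gria4, Grin2b, Grin2d, Grin3a, Dlg5, Shank1 and Homer2. Of the 8 NMDA genes 6 were called, 3 lower and 3 higher. The groups did not overlap for 17 genes, which is 42.5% against 46.8% of all genes.

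Grin3a, an NMDA subunit that lowers calcium flow, had 5.62, 4.75 and 3.98 log2 CPM in R6/2 mice on PLX3397 and 3.77, 3.59 and 4.57 in R6/2 mice on vehicle, against 2.75, 2.08 and 3.38 in wild-type mice on PLX3397 and 4.19, 4.21 and 4.68 in wild-type mice on vehicle. The PLX3397 groups did not overlap, and R6/2 mice were higher by 2.05 ± 0.43 (SE, adjusted p = 0.00559). Grin2b, the subunit typical of young and extrasynaptic receptors, had 5.17, 5.85 and 5.68 log2 CPM in R6/2 mice on PLX3397 and 3.21, 5.82 and 5.76 in R6/2 mice on vehicle, against 3.84, 3.50 and 3.84 in wild-type mice on PLX3397 and 5.88, 6.19 and 4.75 in wild-type mice on vehicle. R6/2 mice on PLX3397 were higher, without overlap, by 1.84 ± 0.60 (SE, adjusted p = 0.0361). Grin2d had 5.30, 4.26 and 4.12 log2 CPM in R6/2 mice on PLX3397 and 4.27, 3.83 and 3.70 in R6/2 mice on vehicle, against 2.93, 3.42 and 2.92 in wild-type mice on PLX3397 and 3.86, 3.75 and 4.62 in wild-type mice on vehicle, and its genotype change on PLX3397 was 1.47 ± 0.33 (SE, adjusted p = 0.00771). In all 3 genes, wild-type mice on PLX3397 held the lowest group mean of the study.

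The NMDA genes that were lower on PLX3397 include the subunit that every NMDA receptor needs. Grin1 had 7.90, 8.18 and 8.40 log2 CPM in R6/2 mice on PLX3397 and 8.15, 8.52 and 8.39 in R6/2 mice on vehicle, against 9.13, 8.62 and 8.79 in wild-type mice on PLX3397 and 8.04, 8.23 and 8.28 in wild-type mice on vehicle. Wild-type mice on PLX3397 were the highest group, and the genotype change on PLX3397 was -0.68 ± 0.17 (SE, adjusted p = 0.0122). Grin3b, a glycine-binding subunit with few reads, had 0.63, 0.93 and 0.98 log2 CPM in R6/2 mice on PLX3397 and 1.45, 0.27 and 0.47 in R6/2 mice on vehicle, against 2.82, 1.78 and 2.45 in wild-type mice on PLX3397 and 1.75, 1.08 and 0.21 in wild-type mice on vehicle, and changed on PLX3397, without overlap, by -1.50 ± 0.44 (SE, adjusted p = 0.0228). Gria4, an AMPA subunit typical of fast-spiking interneurons and glial precursors, had 7.15, 7.23 and 6.68 log2 CPM in R6/2 mice on PLX3397 and 5.96, 6.58 and 6.30 in R6/2 mice on vehicle, against 4.68, 5.71 and 6.03 in wild-type mice on PLX3397 and 7.10, 6.79 and 6.49 in wild-type mice on vehicle. Its R6/2 libraries were all above its wild-type libraries on PLX3397, by 1.54 ± 0.32 (SE, adjusted p = 0.00499). Among the scaffolds, Dlgap4 had 6.95, 7.24 and 7.51 log2 CPM in R6/2 mice on PLX3397 and 7.41, 7.76 and 7.71 in R6/2 mice on vehicle, against 7.83, 7.68 and 7.98 in wild-type mice on PLX3397 and 7.56, 7.48 and 7.64 in wild-type mice on vehicle, a change of -0.59 ± 0.15 (SE, adjusted p = 0.0143). Shank1 had 7.59, 7.21 and 7.92 log2 CPM in R6/2 mice on PLX3397 and 7.46, 8.38 and 8.15 in R6/2 mice on vehicle, against 6.41, 6.52 and 7.24 in wild-type mice on PLX3397 and 7.96, 7.36 and 8.04 in wild-type mice on vehicle, and here R6/2 libraries lay higher, with overlap, by 0.85 ± 0.30 (SE, adjusted p = 0.048). Homer2, a constitutive Homer scaffold, had 5.21, 5.04 and 5.64 log2 CPM in R6/2 mice on PLX3397 and 5.25, 5.61 and 5.90 in R6/2 mice on vehicle, against 4.15, 4.93 and 4.60 in wild-type mice on PLX3397 and 5.94, 6.17 and 6.14 in wild-type mice on vehicle. It was higher in R6/2 mice on PLX3397 by 0.73 ± 0.23 (SE, adjusted p = 0.0305).

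Genes already called over both diets gave log2 changes on PLX3397 of -1.87 for Dlgap3 (adjusted p = 0.00456), -1.61 for Grin2c (adjusted p = 0.00194) and -1.22 for Shank3 (adjusted p = 0.0203). Dlg4 changed by -1.11 (adjusted p = 0.00328), Grik5 by -0.96 (adjusted p = 0.00138) and Dlg5 by 1.10 (adjusted p = 0.00222). For Grm3 the value was -1.07 (adjusted p = 0.0177). Single libraries ended some of these calls. Grin1 was lost without R6/2 PLX3397 1 (adjusted p = 0.0515) and Dlgap4 without R6/2 PLX3397 1 (adjusted p = 0.0574). Grm3 was lost without R6/2 PLX3397 1, or wild-type PLX3397 1 (adjusted p 0.0508 to 0.0707), and Shank3 without R6/2 PLX3397 1 or 2 (adjusted p 0.0501 to 0.0731). Grin3b was lost without R6/2 PLX3397 1 or 2, or wild-type PLX3397 1 or 3 (adjusted p 0.0546 to 0.0718). Homer2 was lost without R6/2 PLX3397 1 or 3, or wild-type PLX3397 1 or 3 (adjusted p 0.0577 to 0.1). Grin2b was lost without R6/2 PLX3397 1, 2 or 3, or wild-type PLX3397 1, 2 or 3 (adjusted p 0.0575 to 0.102). Shank1 was lost without R6/2 PLX3397 1 or 3, or R6/2 vehicle 3, or wild-type PLX3397 1 or 2, or wild-type vehicle 1 or 3 (adjusted p 0.0551 to 0.141).

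After removal of the trend with GC content and length, 19 genes were called on PLX3397, 15 lower and 4 higher, and 12 of them were among the 17. This is 47.5%, where 24.6% of the 15100 genes with a known GC content were called in that fit. The median log2 change of the 40 genes was -0.449 in it, against -0.013 without the removal. The 7 genes gained were all lower, namely Gria1, Grik2, Grm8, Dlg1, Dlg2, Dlg3 and Homer1. The calls for Grin1, Grin2b, Grin3b, Shank1 and Homer2 ended, and Homer2 turned to a log2 change of -0.29 (adjusted p = 0.481). In the main fit, without that removal, 18 of the 59 pathway genes were lower and 7 higher, where 35% of all genes were called. The log2 changes were -1.34 for Ppp1r9b, -2.75 for Gsg1l, -1.34 for Cnih2 and -0.80 for Gripap1. Of the projection neuron markers 10 of 11 were lower in R6/2 mice on PLX3397 in the main fit (median -2.62). So were 2 of 6 markers of myelinating oligodendrocytes and 1 of 8 microglia markers. Called higher were 1 of 9 cortical markers and 1 of 7 markers of thalamus, septum and pallidum. Of 6 astrocyte markers 1 was higher and 1 lower. The part of these lists was not tested, apart from a cortical marker covariate and the fits that leave libraries out. Oligodendrocyte precursor markers moved with these results as well: 3 of 5 were higher in R6/2 mice on PLX3397, at 177 to 222 summed CPM, against 101 to 145 in wild-type mice on PLX3397. Their part in the result for Gria4 was not tested. In the deposited values, 19 of the 40 genes had the same sign of genotype change on both diets, 14 lower and 5 higher, and 15 were lower on vehicle and higher on PLX3397. With the trend in GC content and length removed, 29 had the same sign, 22 lower and 7 higher, and 7 were lower on vehicle and higher on PLX3397.

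In wild-type mice PLX3397 lowered 5 of the 40 genes, Homer2, Gria4, Grin3a, Shank1 and Dlg5, and raised 2, Grin1 and Grik5. All genes gave 14.2% called, 8.3% as lower and 5.93% as higher, so a share of 17.5% among the 40 is near the background. Homer2 changed by -1.52 ± 0.23 (SE, adjusted p = 0.00473), and no wild-type library on PLX3397 exceeded 4.93 while none on vehicle was under 5.94. Gria4 changed by -1.32 ± 0.32 (SE, adjusted p = 0.0248) and Grin3a by -1.62 ± 0.43 (SE, adjusted p = 0.0341). The groups did not overlap for either gene. Shank1 changed by -1.06 ± 0.30 (SE, adjusted p = 0.0413) and Dlg5 by -0.62 ± 0.19 (SE, adjusted p = 0.0498). Grin1 rose by 0.66 ± 0.17 (SE, adjusted p = 0.0311) and Grik5 by 0.57 ± 0.15 (SE, adjusted p = 0.0329), again without overlap. In all, 14 genes had no overlap, or 35% against 36.1% of all genes.

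Larger changes that did not pass were those of Grin2b (-1.88 ± 0.60, adjusted p = 0.0592) and Grin2a. Grin2a, the NMDA subunit that rises as synapses mature, had 2.58, 3.48 and 3.69 log2 CPM in R6/2 mice on PLX3397 and 0.93, 4.07 and 3.49 in R6/2 mice on vehicle, against 2.62, 0.57 and 2.27 in wild-type mice on PLX3397 and 4.11, 4.09 and 2.98 in wild-type mice on vehicle. R6/2 vehicle library 1 and wild-type PLX3397 library 2 were far below the rest, and the drug change in wild-type mice was -1.91 ± 0.77 (SE, adjusted p = 0.108). Without R6/2 vehicle library 1 both passed, with adjusted p = 0.0399 for Grin2a and 0.00897 for Grin2b. That library is outside this contrast, so the log2 changes stayed at -1.91 and -1.88 while the shared estimate of the spread differed. Grin2b also passed without wild-type vehicle library 3 (adjusted p = 0.0441). Without the 2 libraries high in choroid plexus genes the adjusted p was 0.0206 for Grin2a and 0.0119 for Grin2b. The smallest p among the metabotropic genes belonged to Grm5 (-1.08 ± 0.38, adjusted p = 0.0762) and among the Dlgap genes to Dlgap4 (0.27 ± 0.15, adjusted p = 0.241). Of the 59 pathway genes 2 rose, Gripap1 (0.54) and Pick1 (0.48), and 5 fell, with Dnm3 at -0.77 and Cyfip1 at -0.41.

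These 7 calls did not hold when the trend with base composition was taken out. With the trend in GC content and length removed none of the 7 was called, the log2 change of Homer2 was -0.64 (adjusted p = 0.205), and Dlg4 was called instead at 0.73 (adjusted p = 0.0191). With wild-type vehicle library 1 or 2 removed, 1 gene was called in place of 7, and calls over all genes fell to 1.48% and 1.57%. Gria4 was lost without wild-type vehicle 1 or 2 (adjusted p 0.0843 to 0.106). Grin1 was lost without wild-type PLX3397 1 or 3, or wild-type vehicle 1 or 2 (adjusted p 0.0526 to 0.124). Grin3a was lost without wild-type PLX3397 2, or wild-type vehicle 1, 2 or 3 (adjusted p 0.0752 to 0.0977). Grik5 was lost without wild-type PLX3397 1, 2 or 3, or wild-type vehicle 1, 2 or 3 (adjusted p 0.0508 to 0.125). Shank1 was lost without R6/2 PLX3397 1, or R6/2 vehicle 3, or wild-type PLX3397 1 or 2, or wild-type vehicle 1, 2 or 3 (adjusted p 0.0563 to 0.14). Dlg5 was lost without R6/2 PLX3397 2 or 3, or R6/2 vehicle 1, 2 or 3, or wild-type PLX3397 2 or 3, or wild-type vehicle 1, 2 or 3 (adjusted p 0.0549 to 0.145). Homer2 kept its call in every fit that left out 1 library. Precursor markers of the oligodendrocyte lineage, 3 of 5 lower with PLX3397 in wild-type mice at 101 to 145 summed CPM against 247 to 259 on vehicle, moved in the same direction as Gria4 and Homer2, as did 2 of 6 astrocyte markers (median -0.634), and their part was not tested.

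In R6/2 mice PLX3397 changed none of the 40 genes by limma at an adjusted p under 0.05, and 1.1% of all genes were called, 1.04% as lower and 0.0585% as higher. Unadjusted p was under 0.05 for 6 of the 40, and limma on the recovered reads (voom) also called none. The smallest p in each family gave 0.74 ± 0.32 for Gria4 (adjusted p = 0.372), -0.44 ± 0.15 for Grik5 (adjusted p = 0.291), 0.81 ± 0.43 for Grin3a (adjusted p = 0.439) and 1.03 ± 0.38 for Grm5 (adjusted p = 0.306). The scaffolds gave 0.28 ± 0.19 for Dlg5 (adjusted p = 0.523), -0.40 ± 0.15 for Dlgap4 (adjusted p = 0.329) and -0.42 ± 0.30 for Shank1 (adjusted p = 0.542). Homer3, another Homer scaffold, had 2.57, 2.46 and 2.83 log2 CPM in R6/2 mice on PLX3397 and 3.86, 2.73 and 2.90 in R6/2 mice on vehicle, against 3.05, 3.02 and 2.80 in wild-type mice on PLX3397 and 2.98, 3.22 and 2.79 in wild-type mice on vehicle. R6/2 vehicle library 1 was its highest library, and the change with PLX3397 was -0.54 ± 0.27 (SE, adjusted p = 0.419). Every R6/2 library on PLX3397 was above every R6/2 library on vehicle for 6 genes, among them Gria2, Gria4, Grik2, Grm4 and Grm5. The reverse held for Grik5 and Grm2, so 8 genes or 20% had no overlap, against 24.1% of all genes. In the pathway list none of 59 was called. Markers of other regions differed between these groups as well. Of the markers of thalamus, septum and pallidum 2 of 7 were called higher with PLX3397 in R6/2 mice (median 1.84). The 9 cortical markers had a median of -1.96, with none called. Their part in the changes listed here was not tested, apart from a cortical marker covariate and the fits that leave libraries out. In tests on simulated data for 3 against 3 mice on vehicle, 50.7% of changes of 2-fold and 17.3% of changes of 1.5-fold were recovered, so the design can miss changes of this size.

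**Figure D4:**
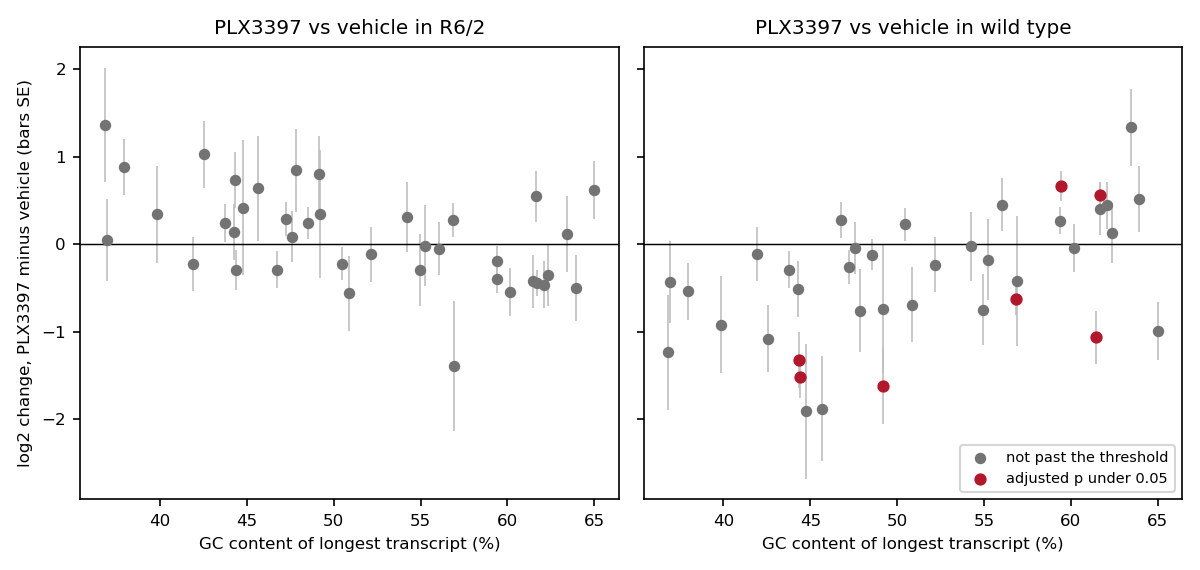
Each point is 1 of 39 of the 40 genes, placed by the GC content of its longest transcript in percent (horizontal axis) and its log2 change with PLX3397 (vertical axis, SE bars), in R6/2 mice on the left and wild-type mice on the right. Red points have adjusted p under 0.05, and the genes slope down in R6/2 mice and up in wild-type mice.

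Changes with the drug followed GC content in opposite directions in the genotypes. Across the 40 genes Spearman's rho between GC content and log2 change was -0.512 in R6/2 mice and 0.54 in wild-type mice. Over 15100 genes the values were -0.46 and 0.508, so the relation is one of the whole table. Genes are not independent replicates, and all points share the same libraries. Of the 20 members with GC content under 50%, 17 were above 0 with PLX3397 in R6/2 mice and 1 in wild-type mice. Of the 20 others, 5 were above 0 in R6/2 mice and 10 in wild-type mice. The genotype changes followed GC content too, in opposite directions on the diets. On vehicle rho was 0.477 across the 40 genes and 0.281 over all genes, and on PLX3397 -0.352 and -0.446. Of the 20 members under 50%, 0 were above 0 on vehicle and 13 on PLX3397. Of the 20 others, 11 were above 0 on vehicle and 7 on PLX3397. In the averaged genotype comparison, which combines these opposite relations, rho was 0.04 across the 40 genes, and -0.212 over all genes.

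The drug's change differed between the genotypes for 8 genes by the interaction term, which is the change in R6/2 mice minus the change in wild-type mice. It was positive for Gria4, Grin2d, Grin3a, Grm5, Dlg5 and Homer2, and negative for Grin1 and Grik5. Over all genes 17% were called, 9.29% positive and 7.71% negative, and 20% of the 40 is near that share. Grin3a had a change of 0.81 in R6/2 mice and -1.62 in wild-type mice, an interaction of 2.43 ± 0.61 (SE, adjusted p = 0.0268). Grm5 changed by 1.03 in R6/2 mice and -1.08 in wild-type mice, an interaction of 2.10 ± 0.54 (SE, adjusted p = 0.0279). Gria4 changed by 0.74 in R6/2 mice and -1.32 in wild-type mice, with 2.05 ± 0.45 (SE, adjusted p = 0.0185). These 3 had the largest interactions among the 8 genes.

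Grin2d had an interaction of 1.61 ± 0.47 (SE, adjusted p = 0.0406), Homer2 of 1.23 ± 0.32 (SE, adjusted p = 0.0306) and Dlg5 of 0.90 ± 0.27 (SE, adjusted p = 0.0422). Homer2 fell in wild-type mice, while its value in R6/2 mice was -0.29. For Grin1 the interaction was -0.85 ± 0.24 (SE, adjusted p = 0.0377) and for Grik5 -1.01 ± 0.21 (SE, adjusted p = 0.0173). Gria2 (2.60, adjusted p = 0.0727), Grin2b (2.52, adjusted p = 0.0635) and Grin2a (2.32, adjusted p = 0.148) had large estimates that did not pass. With the trend in GC content and length removed these were 0.38 for Gria2, 0.91 for Grin2b and 0.82 for Grin2a. Grin2b passed without wild-type vehicle library 3 (adjusted p = 0.0448). Of the 59 pathway genes 5 were positive and 5 negative, with Dnm3 at 1.55, Lrrtm2 at 2.12 and Grip1 at 1.51.

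None of the 8 calls held after removal of the trend in GC content and length, where Dlg4 alone of the 40 genes was called, at -1.25 (adjusted p = 0.0299), along with 3.7% of the 15100 genes tested. The estimate of Homer2 turned to -0.15 (adjusted p = 0.851), while that of Grin2d was 1.63 (adjusted p = 0.0984). The others were 1.77 for Grin3a, 1.28 for Gria4, 0.75 for Grm5, 0.57 for Dlg5, -0.51 for Grin1 and -0.62 for Grik5, with adjusted p between 0.0739 and 0.208. None held without R6/2 PLX3397 libraries 1 and 2, a fit in which no gene of the whole table was called. Single libraries also ended calls. Grik5 was lost without wild-type vehicle 2 (adjusted p = 0.0504), and Gria4 without R6/2 PLX3397 2, or wild-type vehicle 1 or 2 (adjusted p 0.0504 to 0.0535). Grm5 was lost without R6/2 PLX3397 2, or R6/2 vehicle 1, or wild-type vehicle 1 or 2 (adjusted p 0.0555 to 0.073). Grin3a was lost without R6/2 PLX3397 1 or 2, or R6/2 vehicle 1 or 2, or wild-type vehicle 1 or 2 (adjusted p 0.0543 to 0.0606). Homer2 was lost without R6/2 PLX3397 1 or 2, or R6/2 vehicle 1 or 2, or wild-type vehicle 1 or 2 (adjusted p 0.0509 to 0.0743). Grin1 was lost without R6/2 PLX3397 1 or 2, or R6/2 vehicle 2 or 3, or wild-type PLX3397 3, or wild-type vehicle 1 or 2 (adjusted p 0.0528 to 0.0959). Grin2d was lost without R6/2 PLX3397 1 or 2, or R6/2 vehicle 1, 2 or 3, or wild-type PLX3397 1 or 3, or wild-type vehicle 1, 2 or 3 (adjusted p 0.0536 to 0.078). Dlg5 was lost without R6/2 PLX3397 1 or 2, or R6/2 vehicle 1, 2 or 3, or wild-type PLX3397 2 or 3, or wild-type vehicle 1, 2 or 3 (adjusted p 0.0507 to 0.0954). The interaction uses the same libraries as the drug and genotype comparisons above. Markers of thalamus, septum and pallidum moved with it: 3 of 7 were positive, and their summed level was 75.7 to 293 CPM in R6/2 mice on PLX3397, 44.7 to 140 in R6/2 mice on vehicle, 39.8 to 230 in wild-type mice on PLX3397 and 144 to 361 in wild-type mice on vehicle. None of these 7 markers was at 0 in any library. Of the oligodendrocyte precursor markers 3 of 5 were positive as well (median 0.895), as were 2 of 6 astrocyte markers (median 0.659), and 1 of 8 microglia markers was negative (median -0.8). The part of these markers in the interaction was not tested. With a covariate for the cortical markers 1 of the 8 genes was still called, along with 2.24% of all genes.

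**Figure D5:**
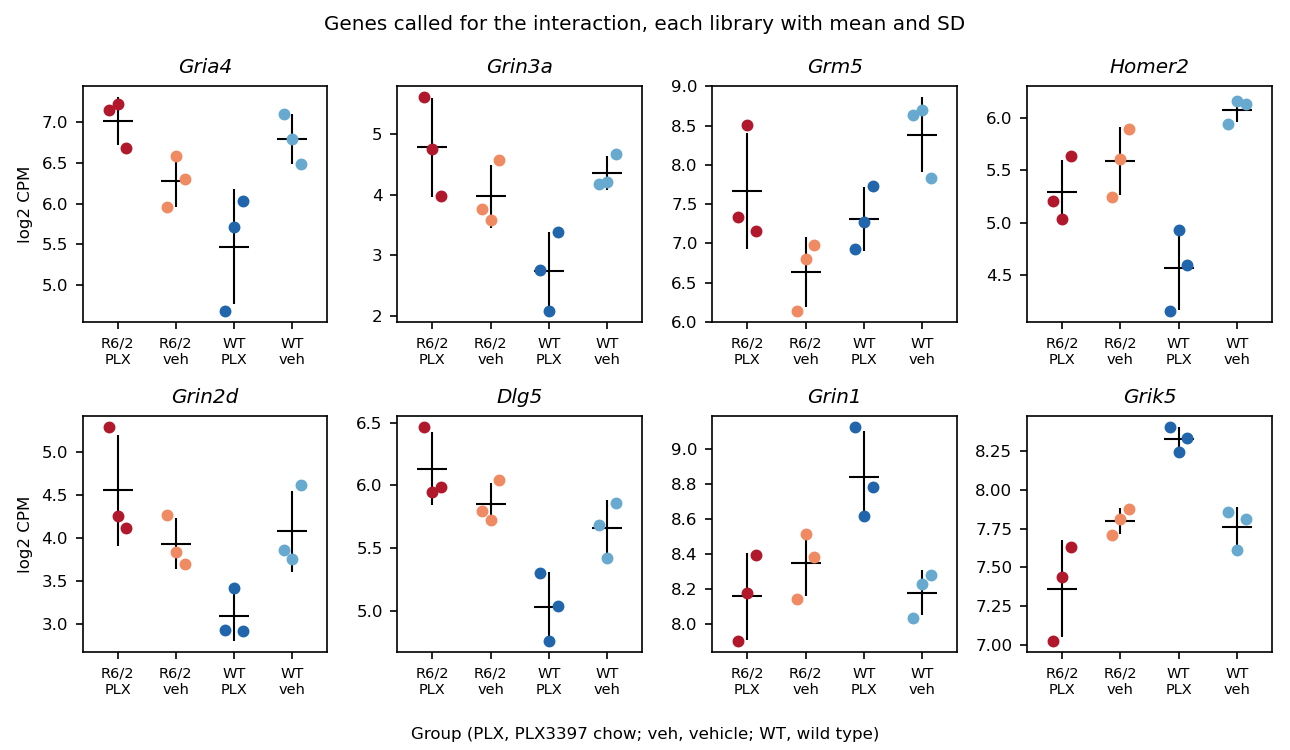
Each point is the log2 CPM (vertical axis) of 1 mouse in the group named below it, with mean and SD (n = 3), for the 8 genes whose change with PLX3397 differed between the genotypes. Wild-type mice on PLX3397 have the lowest mean for Gria4, Grin3a, Homer2, Grin2d and Dlg5 and the highest for Grin1 and Grik5, and R6/2 mice on vehicle have the lowest for Grm5.

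Of the 40 genes, 21 were called in at least 1 of the 6 contrasts and 19 in none. This is 52.5%, against 44.1% of all genes, and all 40 were tested without a filter on low values. The 19 included Gria2, Gria3, Grik1, Grik2, Grik3, Grik4, Grin1os, Grin2a, Grm2, Grm7, Dlg1, Dlg2, Dlg3, Dlgap1, Dlgap2, Dlgap5, Shank2 and Homer3. For the following genes the range over the 12 libraries is given. Gria3 ran 5.22 to 8.01 log2 CPM and its lowest library was wild-type PLX3397 library 1. Of the kainate genes, Grik1 ran 2.06 to 4.76, Grik3 5.63 to 7.73 and Grik4 3.67 to 5.12, and Grik3 was lowest in R6/2 vehicle library 1. Grin1os ran 3.68 to 5.04. Among the metabotropic genes, Grm7, a widespread presynaptic receptor, ran 5.51 to 6.37, and Grm2 0.52 to 4.35, with its lowest value in wild-type PLX3397 library 1. Dlg1 ran 7.25 to 8.13, Dlg2, a close relative of Dlg4, 7.67 to 9.34, and Dlg3 7.21 to 8.05. Dlgap1 ran 6.01 to 8.19, Dlgap2 4.43 to 6.34 and Dlgap5 -2.40 to 0.69. Shank2 ran 5.14 to 7.61 and was lowest in wild-type PLX3397 library 2. The log2 changes of the 19 genes between genotypes over both diets ran between -0.62 for Dlgap5 and 0.69 for Grm2. A value that missed the threshold does not show that the gene was the same in both groups.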

How the data were processed

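RNA was sequenced from the striatum of 12 mice, 3 in each of 4 groups, on libraries made with Illumina TruSeq kits per the labels' protocols. STAR, featureCounts, edgeR, limma and mm10 are named in the submitters' processing notes, without versions or roles. The deposited values are log2 CPM with a small prior count added by the authors, although the table is named for RPKM. No length correction was found in them. All 12 libraries share a lowest value of -3.46, the antilogs sum to 920461 to 1070700, and 100% of values gave whole reads within a tolerance of 0.1 read after a prior of 1.65 to 2.41 reads was subtracted. The recovered depth was 18902120 to 24293208 reads per library. Counting error is therefore small beside the spread between mice for all but the genes with few reads. Libraries of 1 group correlated at 0.938 to 0.986 and differed beyond sampling noise, so none was counted as a repeat of another. No litter, cage or batch is given in the labels, and p-values measure the spread between these samples.

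The deposited values went into limma 3.58.1 (R 4.3.3) as they stand. A single model with 1 mean for each group held all 12 libraries, its prior variance followed mean expression, and tests were two-sided. A gene counts as called where p, adjusted by Benjamini and Hochberg across the 15397 genes of the table, is below 0.05. No filter was applied, and 6 contrasts were taken. SE is that of the fit. GC content and transcript length came from GENCODE M21 for 15100 genes (98.1%), and promoters from RefSeq on GRCm38.p6. On simulated data for R6/2 against wild-type mice on vehicle, with 15397 genes and 3 simulations, 81.3% of 4-fold changes were recovered. The members, the pathway list, the marker lists and the tests were chosen with earlier results of these data known. Values in every library are given for each member called in any contrast, for the member of each family with the smallest p in the vehicle genotype and the drug contrasts, and for 9 well-known members. Up to 4 called pathway genes are named per contrast. Deviations from the group means of same-numbered mice correlated at -0.321 to 0.396 over 18 pairs. This check cannot exclude a shared litter, cage or batch, because the deviations of 3 mice in a group depend on each other. No pairing is stated in the labels. Alternatives were pseudocounts of 0.5 and 5 CPM, a filter at a mean of 1 CPM, median-of-ratios scaling, a replicate block, only the groups compared, removal of the GC and length trend, limma-voom on the recovered reads, a cortical marker covariate, and libraries left out. 2 of them were added after the data had been seen. Values of some genes are not reported here. Figures used matplotlib 3.10.9.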

Additional observations from a re-analysis of the deposited data

Results flagged for a closer look

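For 8 genes the change with PLX3397 differed between R6/2 and wild-type mice by the interaction term of the limma fit, which is what marked them for a closer look. This is 20% of the 40 genes, where 17% of all genes were called. None of the 8 was called with the GC and length trend removed. The interaction on the log2 scale was 2.43 for Grin3a, 2.10 for Grm5 and 2.05 for Gria4, with adjusted p of 0.0268, 0.0279 and 0.0185. It was 1.61 for Grin2d (adjusted p = 0.0406), 1.23 for Homer2 (adjusted p = 0.0306) and 0.90 for Dlg5 (adjusted p = 0.0422). It was negative for Grik5, at -1.01 (adjusted p = 0.0173), and for Grin1, at -0.85 (adjusted p = 0.0377). Neither gene was called for the drug in R6/2 mice, where the changes were -0.44 for Grik5 and -0.19 for Grin1. With 3 mice in a group no single library was tested as an outlier.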

How the results depend on the processing

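The 69 pairs of a named gene and a contrast gave 1703 values under the alternatives, of which 1698 kept their direction and 292 kept it but lost the call. The direction turned for Homer2 with the GC and length trend removed, at -0.29 for genotype on PLX3397 and -0.15 for the interaction. With the 2 libraries high in choroid plexus genes also left out it was -0.49 and -0.31. Shank1 in R6/2 mice turned to 0.13 with the cortical marker covariate. The cause was not tested. Of the counts of members called, that for PLX3397 in R6/2 mice was 0 in all 25 alternatives.

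For genotype on vehicle, 2 as reported, the count was 1 with a pseudocount of 5 CPM, 0 with voom or the cortical marker covariate, 1 without the libraries high in choroid plexus genes (with or without the GC trend removed) and 6 without the 3 libraries lowest in cortical markers. For PLX3397 in wild-type mice, 7 as reported, it was 1 with only the groups compared and 1 with the GC trend removed, also with the choroid plexus libraries left out. Of all genes 14.2% were called as reported, and 2.28%, 5.5% and 7.37% in these fits, in that order. For genotype on PLX3397, 17 as reported, it was 0 without R6/2 PLX3397 libraries 1 and 2 and 0 without the 3 libraries lowest in cortical markers. For the interaction, 8 as reported, it was 1 with the GC trend removed, 1 with the cortical marker covariate, 5 without the choroid plexus libraries, 0 with both of those changes, 0 without R6/2 PLX3397 libraries 1 and 2 and 0 without the 3 libraries lowest in cortical markers. For genotype over both diets, 11 as reported, it was 6 without R6/2 PLX3397 libraries 1 and 2 and 18 with the GC trend removed and the choroid plexus libraries left out. Where 1 library remains in a group, it is assumed to vary like the other groups. The share of all genes called moved as well. For genotype on vehicle it was 2.11% as reported, 1.38% with a pseudocount of 5 CPM, 0.942% with voom and 0.351% with the cortical marker covariate. Without the choroid plexus libraries it was 0.669%, and 1.75% with the GC trend removed as well. For the interaction it was 17% as reported, 3.7% with the GC trend removed and 2.24% with the cortical marker covariate. Without the choroid plexus libraries it was 16.2%, and 0% with the GC trend removed as well. For genotype over both diets it was 22.4% as reported and 26.3% with the GC trend removed and the choroid plexus libraries left out.

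Leaving out 1 library in turn gave 0 to 4 calls for genotype on vehicle, where 0.00649% to 3.64% of all genes were called. For PLX3397 in wild-type mice it gave 1 to 9, against 1.48% to 17.6% of all genes. For genotype on PLX3397 it gave 9 to 18, against 22% to 36.6% of all genes. For the interaction it gave 0 to 12, against 3.49% to 22.9%, and for genotype over both diets 8 to 15, against 14.7% to 25.9%. Same-numbered mice of different groups correlated at -0.321 to 0.396 over 18 pairs, 3 of them over 0.1, and 1 library correlated best with its own number. With the replicate block the counts were 0 for genotype on vehicle, 4 for PLX3397 in wild-type mice, 17 for genotype on PLX3397, 6 for the interaction and 10 for genotype over both diets. Of all genes 0.26%, 7.21%, 29%, 9.3% and 17.6% were called in that fit, in the same order. Depth limits the values of Dlgap5 and Grin3b, which have few reads.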
